A study of Mus musculus with 9 samples.

Results

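The endoplasmic reticulum (ER) protein processing genes described here are the genes of the pathway entry "Protein processing in endoplasmic reticulum" in the deposited annotation, without the COPII coat genes (Sec13, Sec23, Sec24, Sec31 and Sar1 families), the Mbtps proteases and the stress sensors and chaperones Hspa5, Hsp90b1, Xbp1, Atf4, Atf6, Herpud1, Ddit3 and Pdia4. The rule left 148 genes of the 169 in the pathway and of the 21899 in the table. They were measured by poly(A) RNA-seq in Neuro-2a (N2a) cells, a mouse neuroblastoma line, which the labels describe as neuroblasts of brain origin with no further treatment. The 9 libraries were 3 with a hairpin against luciferase (shlucif, the control, labelled luciferase knockdown), 3 with shArf1-1 and 3 with shArf1-2, a pair of hairpins against Arf1, the small GTPase that recruits COPI coats to the Golgi. All 3 groups therefore carried a hairpin, and the 6 libraries with an Arf1 hairpin are called Arf1-deficient. Nothing in the labels says whether replicates came from separate cultures, so p-values measure the spread between these libraries, which may be technical.

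Proteins that enter the secretory pathway are threaded into the ER through the Sec61 channel, receive an N-linked glycan from the oligosaccharyltransferase, and fold with the help of the lectins calnexin and calreticulin, of BiP with its co-chaperones, and of protein disulphide isomerases. Chains that fail to fold lose mannose residues, are recognised by lectins and drawn back through the Syvn1-Sel1l membrane ligase complex, and are pulled out by the Vcp ATPase for degradation by the proteasome, a route called ER-associated degradation (ERAD). Load on this system is sensed by Ern1 (IRE1), Eif2ak3 (PERK) and the Atf6 proteins, and many of its genes are known targets of their transcription factors.

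Several of these genes carry a known binding site of those factors, the ER stress element (ERSE), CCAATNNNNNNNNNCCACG on either strand. Of the 148 members, 123 had an entry in the RefSeq promoter table (build GRCm38.p6, 250 bases before to 50 after the start), and 8 of them (6.5%) held this motif, against 0.137% of all genes in the table. All 8 matches lay before the start. They are printed here because the element is the known site of the ER stress transcription factors, each on the gene's strand, with the fixed letters of the motif in capitals:
Syvn1, chr19:6046527-6046555, plus strand, bases -44 to -26 from the start: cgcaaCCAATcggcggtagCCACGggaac
Pdia6, chr12:17266486-17266514, plus strand, -98 to -80: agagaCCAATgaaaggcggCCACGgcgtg
Dnajc3, chr14:118937822-118937850, plus strand, -105 to -87: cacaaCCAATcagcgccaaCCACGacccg
Canx, chr11:50325795-50325823, minus strand, -145 to -127: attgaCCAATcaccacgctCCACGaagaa
Derl3, chr10:75893237-75893265, plus strand, -156 to -138: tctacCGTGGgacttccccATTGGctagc
Calr, chr8:84847070-84847098, minus strand, -162 to -144: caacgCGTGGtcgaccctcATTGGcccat
Calr4, chr4:109218233-109218261, plus strand, -175 to -157: cagctCGTGGtccccaaccATTGGctgca
Ero1b, chr13:12565677-12565705, plus strand, -201 to -183: ggcctCGTGGtcccgcctcATTGGccgcc

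In Syvn1, Pdia6, Dnajc3 and Canx the motif reads on the gene's strand, and in the other four on the opposite strand. The Calr4 match belongs to a RefSeq start that lies before the start of the gene in GENCODE (chr4:109234485-109254571). A related motif, the core of the unfolded protein response element (TGACGTGG, whose reverse complement shares the letters CCACG with ERSE), was found in 4 members, Mapk8, Txndc5, Ube2j1 and Vcp (3.25%, against 0.714% of all genes). The second form of the ER stress element, ATTGGNCCACG, was found in 1 member, Dnajb11, after its start (0.813%, against 0.0444%). The amino acid response element, TGATGNAAT, was in Map2k7 (0.813%, against 1.08%). A heat shock element, GAANNTTCNNGAA, was in Calr4, Hsph1, Nploc4 and Sec62 (3.25%, against 0.662%), in Nploc4 and Sec62 before the start. These are matches of letters, not measured binding.

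Total counts per library were 11182479 to 15594615. Arf1 itself read 316 to 328 FPKM (counts scaled to the listed gene length and to the total of the library) in the shlucif libraries, 127 to 130 with shArf1-1 and 157 to 171 with shArf1-2. It fell by 1.21 ± 0.09 on the log2 scale (SE; quasi-likelihood test of edgeR, p adjusted by Benjamini-Hochberg over 12448 genes, adjusted p = 6.05e-08). The libraries also differed in marker genes of other cells and of the line itself. All 16 tested markers of microglia and macrophages, of a list of 20, were lower in Arf1-deficient cells, with a summed level of 207 to 249 FPKM in shlucif, 0.839 to 0.867 with shArf1-1 and 0.967 to 1.24 with shArf1-2. In each Arf1 hairpin group 11 of the 20 were at 0 counts. Ctss and Spi1 were among these, at means of 32.2 and 3.99 FPKM in shlucif. In the shlucif libraries 3 of the 20 were also at 3 counts or fewer. Of 14 neuroblastoma and sympathetic markers, 12 were higher and 1 lower, and their summed level was 879 to 913 FPKM in shlucif, 1649 to 1804 with shArf1-1 and 1533 to 1619 with shArf1-2. That sum followed the most abundant, Tubb3 (410 to 695 mean FPKM) and Chgb (160 to 432). The higher ones included Dcx, near the floor (0.00967 to 0.0735), and the lower one was Map2 (-0.50 ± 0.07). The part of these shifts in the member changes below was not tested, and in bulk RNA fewer cells of a type and less RNA per cell cannot be told apart.

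In Arf1-deficient cells most of the tested members changed, as did most of all tested genes. More members were higher than lower, and nearly all changed by less than 2-fold. Of 134 members tested, 60 were higher (44.8%, against 31.6% of all 12448 tested genes), 35 were lower (26.1%, against 32.9%) and 39 did not pass an adjusted p of 0.05, so that 70.9% were called, against 64.5% of all genes. The median log2 fold change was 0.14 over the members and 0.00 over all tested genes. Among the 60 higher members the median was 0.37, and 42 of them had changed by at most 0.5. Among the 35 lower members it was -0.53, and 17 had changed by at most 0.5. Of the 134, 8 were called with a log2 fold change beyond 1 in either direction (5.97%, against 14% of all genes). After scaling by TMM (edgeR's trimmed mean of M-values), the 6 Arf1-deficient and 3 shlucif libraries did not overlap for 53 members that were higher (27.9% of all genes) and 30 that were lower (30.1%). With scaling to library totals alone, which is also the scale of FPKM, 73 members were higher and 27 lower, and the median was 0.20, against 0.07 for all genes. The excess of higher members was smaller when a change of more than 1.2-fold was required, with 30 higher and 25 lower over both hairpins, 37 and 24 with shArf1-1, and 25 and 25 with shArf1-2.

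**Figure D1:**
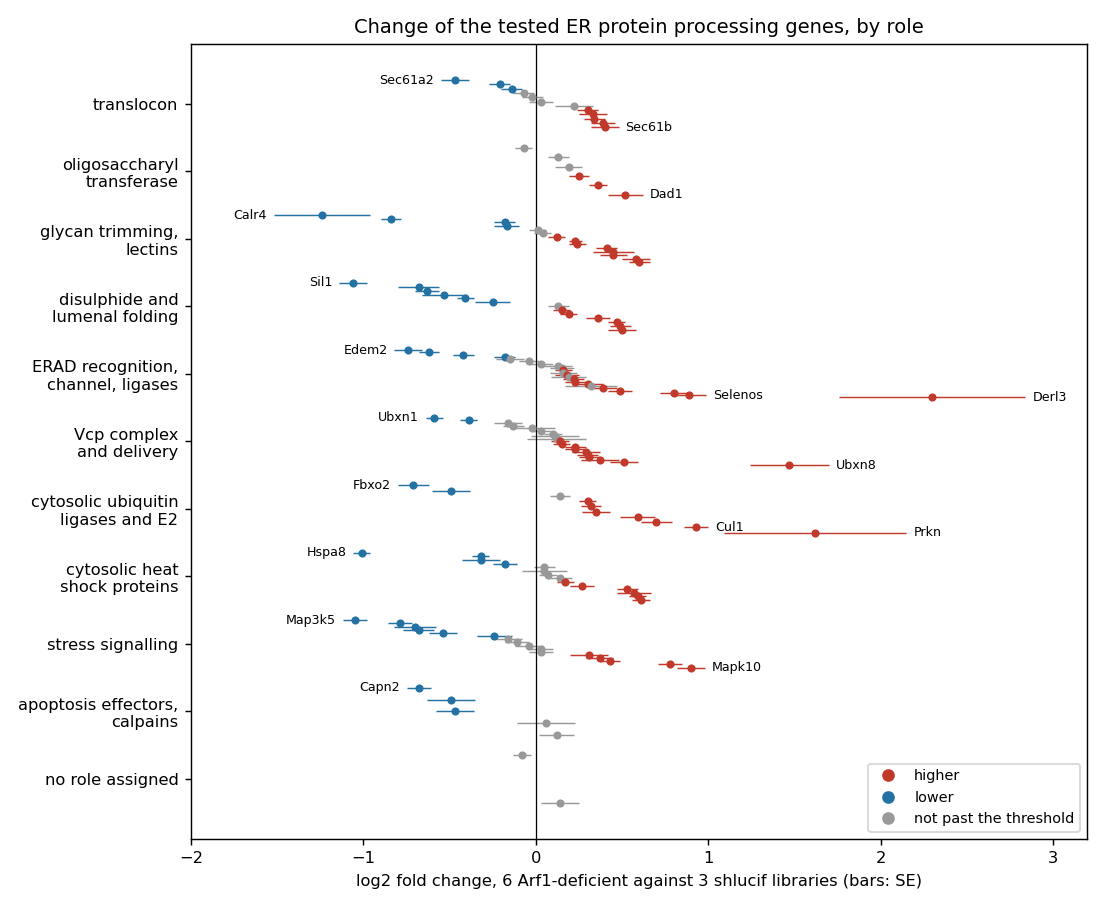
Log2 fold change (x axis, bars SE) of the tested members in 6 Arf1-deficient against 3 shlucif libraries, by role, with red for higher, blue for lower and grey for members past no threshold; Man1a, at least 11.7-fold lower, is left out. Each role except the apoptosis genes and calpains (labelled apoptosis effectors, calpains), the oligosaccharyltransferase and the genes with no assigned role holds both red and blue points.

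Each hairpin was also compared with shlucif on its own. With shArf1-1, 69 members were higher (33.1% of all genes) and 32 lower (34.4%), 75.4% in all against 67.5%, with a median of 0.17. With shArf1-2, 56 were higher (30.9%) and 35 lower (32.6%), 67.9% in all against 63.4%, with a median of 0.11. These comparisons share the shlucif libraries.

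The members were among the more abundant mRNAs of the cell. Their median level in shlucif was 19.1 FPKM, against 6.79 for all tested genes, and 12 exceeded 100 FPKM while 5 of those tested were under 1. Whether this level raised the share of members called, against shlucif or between the hairpins, was not tested. Hsp90ab1 and Hspa8, cytosolic chaperones, alone made up 41.7% of the summed FPKM of the members. Of the 12 most abundant, 6 were higher in Arf1-deficient cells (Hsp90aa1, P4hb, Pdia3, Calr, Canx and Rpn1), 3 were lower (Hsp90ab1, Hspa8 and Pdia6) and 3 did not pass the test (Ddost, Rpn2 and Ssr3). Of the 14 members that could not be tested, 9 were at 0 counts in every library. Casp12, Cryaa, Dnajc5b, Dnajc5g, Sel1l2, Tram1l1, Ube2dnl1 and Ube2dnl2 were among them. The rest had no more than 5 counts in any library and included the inducible heat shock genes Hspa1a and Hspa1b, and Hspa1l. Of the 50-base stretches of Hspa1a and Hspa1b, 60.3% and 62.3% also occur in other genes. Whether this lowered their counts was not tested.

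Summed in FPKM over roles, the ER-resident machinery read higher and the cytosolic chaperones, through Hsp90ab1 and Hspa8, lower in Arf1-deficient cells. The summed level of the lectins, glycan-trimming enzymes and cargo receptors was 658 to 665 FPKM in shlucif, 779 to 798 with shArf1-1 and 767 to 788 with shArf1-2. The oligosaccharyltransferase subunits summed to 471 to 480, 558 to 569 and 503 to 571 FPKM, and the ERAD recognition and ligase genes to 413 to 416, 470 to 480 and 448 to 460 FPKM, in the same order of groups. None of these FPKM ranges in shlucif overlapped those with the Arf1 hairpins. The cytosolic heat shock proteins and co-chaperones summed to 3727 to 3780 FPKM in shlucif, 2965 to 3028 with shArf1-1 and 3175 to 3340 with shArf1-2, lower in every Arf1-deficient library, and the stress signalling genes to 226 to 228, 228 to 232 and 229 to 236 FPKM. FPKM sums follow the most abundant genes, and no test was made on them. The fall of the cytosolic chaperone sum came from Hsp90ab1 and Hspa8. Together, the other genes of that role read higher in every Arf1-deficient library. Of its 14 tested genes, 6 were higher and 4 lower, with a median log2 fold change of 0.10. The sums are scaled to library totals, where the median log2 fold change of all tested genes was 0.07. The TMM factors, not applied to these sums, were 0.9624 to 0.9832 in shlucif and 1.005 to 1.032 in Arf1-deficient libraries. Divided by them, the oligosaccharyltransferase ranges overlap, and so do those of disulphide and lumenal folding and of the translocon. Undivided, the lumenal folding genes summed to 643 to 662 FPKM in shlucif and 695 to 750 in Arf1-deficient libraries. The translocon genes summed to 515 to 549 and 550 to 620. The lectin and ERAD ranges stay apart after division, and the stress signalling sums are then lower in every Arf1-deficient library. The counts of called genes in each role, given below, stand against 31.6% higher and 32.9% lower over all tested genes.

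**Figure D2:**
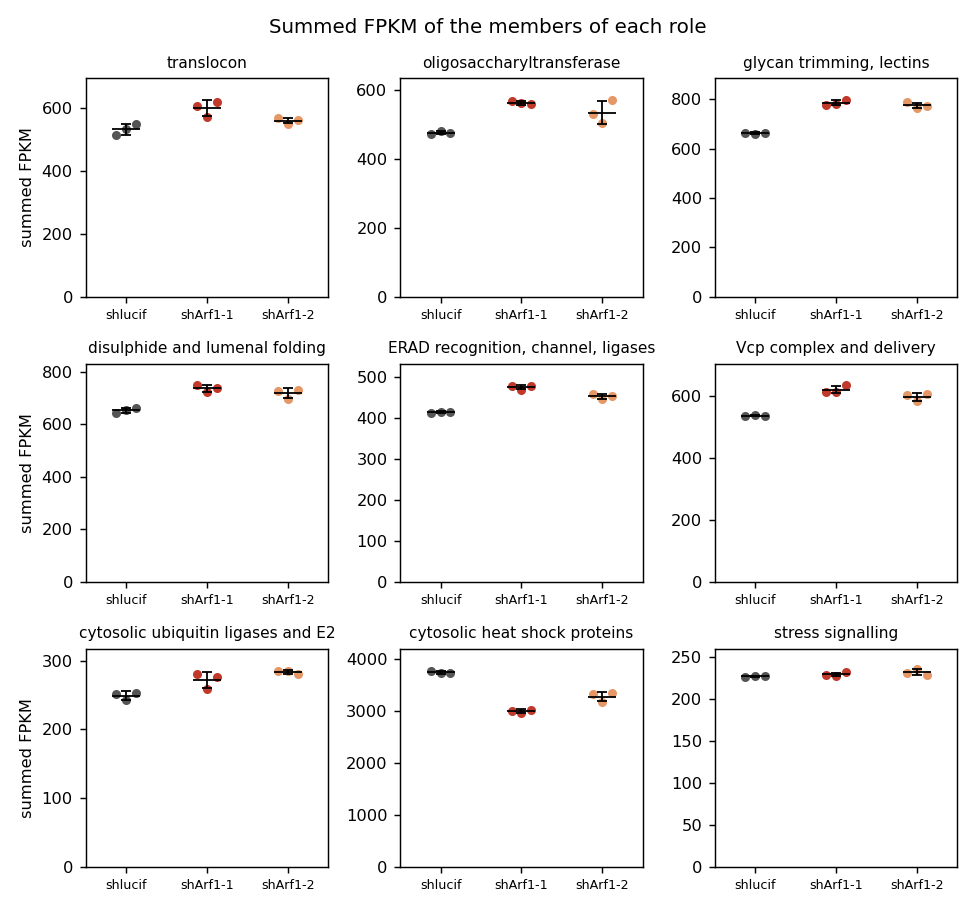
Summed FPKM of all members of each of 9 roles (y axis, from 0) in the 3 libraries of each group (points), with the mean and SD as black bars. The cytosolic heat shock proteins sum to 3727 to 3780 FPKM in shlucif and 2965 to 3340 FPKM in Arf1-deficient cells, and the lectin and glycan-trimming group to 658 to 665 and 767 to 798.

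Among the translocon genes, 5 of 12 tested were higher (41.7%) and 3 lower (25%). Sec61a1, the pore-forming subunit of the channel, read 36.2, 35.3 and 35.8 FPKM in shlucif, 50.2, 49 and 49.3 with shArf1-1, and 45.9, 43.3 and 45.2 with shArf1-2. It was higher in every Arf1-deficient library (log2 fold change 0.34 ± 0.06, edgeR adjusted p = 3.94e-05). Sec61a2, the second gene for the same subunit, moved the other way, from 16.2, 18.5 and 19 FPKM in shlucif to 12.4, 12.5 and 12.4 with shArf1-1 and 14.6, 15.5 and 13.6 with shArf1-2 (-0.47 ± 0.08, adjusted p = 2.06e-05). No library of one group reached the range of the other for either gene. Of the exon bases of Sec61a2, 19.9% also lie in other annotated genes. Sec61b, a small channel subunit, rose from 38.5 to 40.5 FPKM to 48.9 to 60.8 (0.40 ± 0.08), although 17.4% of its 50-base stretches also occur in other genes. Ssr1, of the translocon-associated complex, rose too (0.39 ± 0.07, from 14 to 14.5 FPKM in shlucif to 17.8 to 21.8). Ssr3, the most abundant translocon gene, was at 116 to 135 FPKM in shlucif and 117 to 141 in Arf1-deficient cells, with overlapping groups (-0.07 ± 0.06, adjusted p = 0.317). Sec62, which serves chains inserted after translation, was lower by a small amount (-0.21 ± 0.06, adjusted p = 0.00631), its FPKM ranges overlapped, and it did not pass without shlucif replicate 3 (-0.15, adjusted p = 0.0842).

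The oligosaccharyltransferase had 3 of 6 subunits higher (50%) and 0 lower. Dad1, a small subunit of the complex, was at 10.3, 9.22 and 9.8 FPKM in shlucif, 16.7, 16.6 and 15.5 with shArf1-1, and 13, 12.5 and 13.6 with shArf1-2. The 3 groups did not overlap, and the change against shlucif was 0.52 ± 0.10 (adjusted p = 0.000193). Stt3b, the catalytic subunit that can act after translation, rose from 32.9 to 37.3 FPKM to 45.5 to 49.4 (0.36 ± 0.05, adjusted p = 1.33e-05), and Rpn1 from 99.4 to 107 to between 118 and 134 (0.25 ± 0.06). Stt3a, the catalytic subunit of the channel-bound form, was higher with shArf1-1 (0.32) but did not pass over both hairpins (0.19 ± 0.08, adjusted p = 0.0543), and Ddost, the most abundant subunit, did not either (0.13 ± 0.06, adjusted p = 0.0537). Both passed with scaling to library totals (0.25, adjusted p = 0.0107, and 0.19, adjusted p = 0.00535) and without shArf1-2 replicate 2 (0.24, adjusted p = 0.0052, and 0.17, adjusted p = 0.00911), and Stt3a also without shArf1-2 replicate 1 (adjusted p = 0.0432) or 3 (adjusted p = 0.0412).

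Glycan trimming, lectin and cargo receptor genes included 8 higher and 5 lower members of 15 (53.3% and 33.3%). Mogs, the glucosidase that removes the first glucose, rose from 22.1 to 25.1 FPKM in shlucif to 35.6 to 39.9 in Arf1-deficient cells (0.60 ± 0.06, adjusted p = 1.45e-07), by 0.60 with each hairpin. Lman2, a lectin that carries glycoproteins between ER and Golgi, was at 25.9, 22.5 and 23.9 FPKM in shlucif, 40.3, 43 and 38.4 with shArf1-1, and 34.7, 33.6 and 36.1 with shArf1-2 (0.58 ± 0.08). Calr and Canx, the lectin chaperones of the folding cycle, rose less but without overlap, from 236 to 241 and 151 to 158 FPKM in shlucif to 285 to 296 and 183 to 202 (0.23 ± 0.04 and 0.24 ± 0.05).

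The class I mannosidases, which trim mannose in the ER and Golgi, differed among themselves. Man1b1, the most abundant in shlucif, was at 38.2, 37.7 and 39 FPKM there, 37.9, 37.6 and 39.6 with shArf1-1, and 43.7, 41.3 and 41.4 with shArf1-2, and did not pass (0.01 ± 0.05, adjusted p = 0.904). Man1c1 fell from 24.6, 22.9 and 24.4 FPKM in shlucif to 14.9, 14.1 and 14.1 with shArf1-1 and 13.5, 13.5 and 13.8 with shArf1-2 (-0.84 ± 0.06, adjusted p = 2.26e-10). Man1a2 rose from 7.37, 8.84 and 8.62 FPKM to 12.6, 12.2 and 13.2 and to 10.4, 10.8 and 11.6 (0.45 ± 0.08, adjusted p = 8.12e-05). The groups of Man1c1 and of Man1a2 did not overlap. Man1a (chr10:53904785-54076609, minus strand, GRCm38) had 41, 31 and 30 counts in the shlucif libraries and 0 in all 6 Arf1-deficient libraries. Against a floor of 3 counts per library it was at least 11.7-fold lower, and it was 1 of 185 genes in the table with at least 20 counts in every control library and no more than 3 in every Arf1-deficient one. The macrophage markers given above were likewise at or near 0 counts in these libraries, and their part in the change of Man1a was not tested.

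In the group for disulphide formation and lumenal folding, 6 of 13 were higher and 6 lower (46.2% each), and the division ran within sets of similar function. Among the helpers of BiP, Dnajc3 and Dnajb11, J-domain co-chaperones, rose by 0.50 ± 0.08 and 0.49 ± 0.06, from 7.38 to 9.32 FPKM to 11.5 to 13.1 and from 31.1 to 32.2 FPKM to 41.9 to 50.1. Of the other J-domain proteins of the lumen, Dnajc10 rose from 8.44 to 9.02 FPKM to 11.1 to 12.2 (0.36 ± 0.07), and Dnajc1 fell from 5.47 to 6.12 to 3.76 to 4.13 (-0.63 ± 0.07, adjusted p = 9.61e-08). Hyou1, a large chaperone that also exchanges the nucleotide of BiP, rose from 66.8 to 68.2 FPKM to 89.6 to 105 (0.47 ± 0.05, adjusted p = 4.47e-07). Sil1, the other exchange factor, fell from 13.9, 13.7 and 14.3 FPKM in shlucif to 6.14, 8.04 and 6.91 with shArf1-1 and 7.46, 6.42 and 7.03 with shArf1-2 (-1.06 ± 0.08, adjusted p = 2.29e-09). The highest Arf1-deficient library of Sil1 was well under the lowest control library.

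The oxidases that renew disulphide bonds were both lower. Ero1a was at 23.8, 24.8 and 24.8 FPKM in shlucif, 16, 13.7 and 14.5 with shArf1-1, and 20.9, 21.4 and 19.8 with shArf1-2 (-0.53 ± 0.13, adjusted p = 0.00528), and Ero1b fell from 2.29 to 3.22 FPKM to 1.55 to 2.02 (-0.68 ± 0.12, adjusted p = 4.57e-05). The disulphide isomerases were divided. P4hb, the most abundant, was at 196 to 203 FPKM in shlucif and 214 to 241 in Arf1-deficient cells (0.15 ± 0.05, adjusted p = 0.0162), a change that did not pass without shlucif replicate 2 (0.12, adjusted p = 0.0836). After scaling by TMM the groups of P4hb overlapped. Pdia6 fell from 107, 108 and 107 FPKM to 83.6, 81.1 and 76.3 with shArf1-1 and 88.6, 89.5 and 87.5 with shArf1-2 (-0.41 ± 0.05, adjusted p = 9.14e-07).

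**Figure D3:**
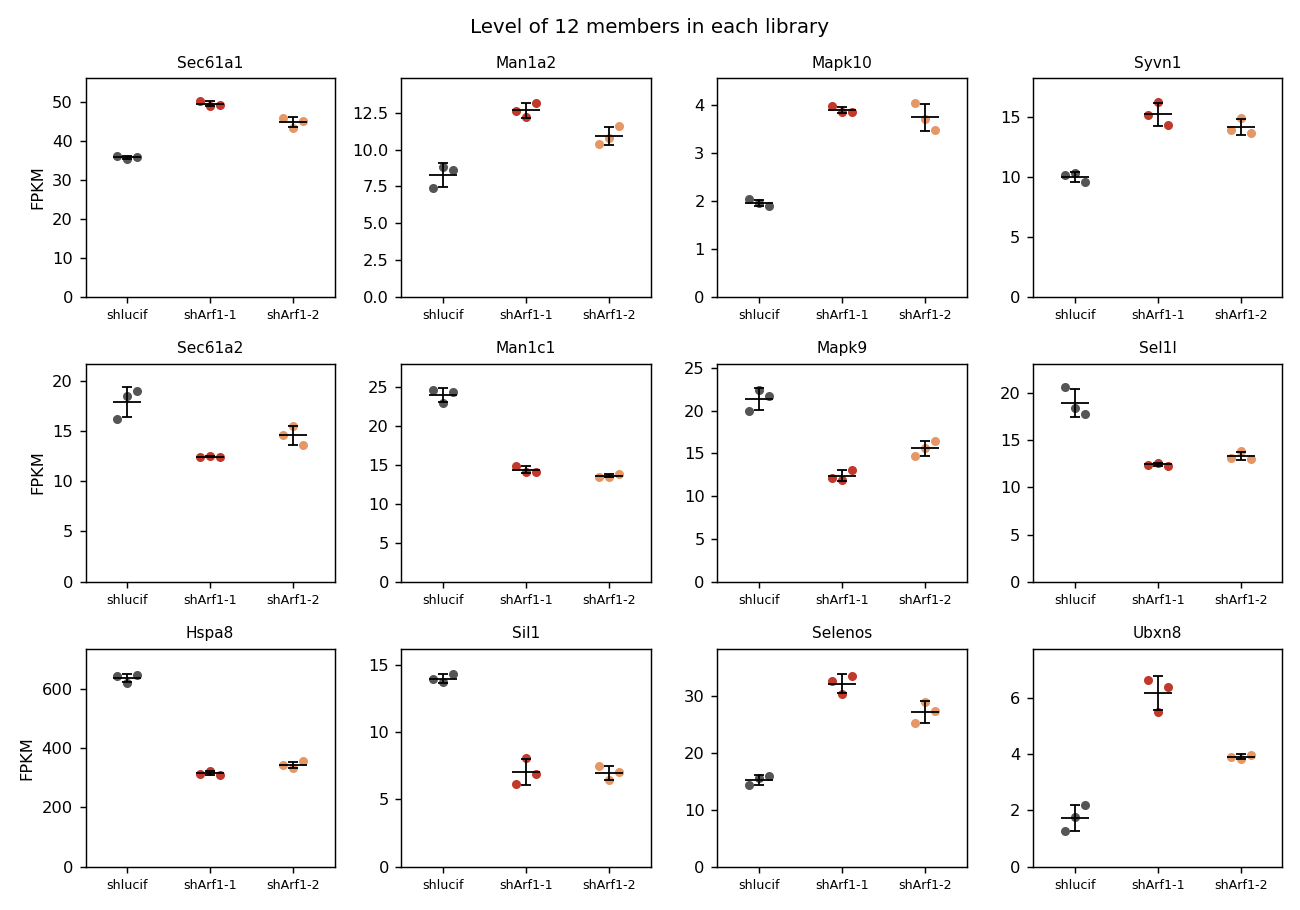
FPKM (y axis, from 0) of 12 members in the 3 libraries of each hairpin group (points), with mean and SD as black bars; the top row and the row under it pair genes of related function that moved in opposite directions. Sec61a1, Man1a2, Mapk10 and Syvn1 rose while Sec61a2, Man1c1, Mapk9 and Sel1l fell, and for each of the 12 the 3 shlucif points lie outside the range of the 6 Arf1-deficient points.

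Of 22 ERAD recognition, channel and ligase genes tested, 10 were higher (45.5%) and 4 lower (18.2%). Selenos, a membrane selenoprotein that recruits Vcp to the ER, was at 14.3, 15.6 and 16 FPKM in shlucif, 32.6, 30.3 and 33.6 with shArf1-1, and 25.2, 29 and 27.4 with shArf1-2 (0.89 ± 0.10, adjusted p = 1.74e-07). Ube2j1, the ER-anchored ubiquitin-conjugating enzyme, rose from 9.33 to 11.3 FPKM to 17.3 to 20.6 (0.80 ± 0.08, adjusted p = 7.07e-08). Syvn1, the ligase of the retrotranslocation complex, rose from 10.1, 10.3 and 9.53 FPKM to 15.1, 16.2 and 14.3 with shArf1-1 and 13.9, 14.9 and 13.6 with shArf1-2 (0.49 ± 0.07, adjusted p = 6.07e-06).

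Sel1l, the adaptor that stabilises Syvn1 in that complex, went the other way, from 20.6, 18.4 and 17.8 FPKM in shlucif to 12.4, 12.6 and 12.3 with shArf1-1 and 13.1, 13.8 and 13 with shArf1-2 (-0.62 ± 0.06, adjusted p = 2.12e-08). The Edem proteins, which act on the mannose of misfolded chains, also divided. Edem2 fell from 18.2 to 20.1 FPKM to 10.9 to 13.5 (-0.74 ± 0.08) and Edem1 from 15.1 to 16.5 to 11.6 to 13.7 (-0.42 ± 0.06), while Edem3 was slightly higher (0.18 ± 0.07, adjusted p = 0.0351), a call lost without any of 4 libraries (shlucif replicate 1 or 2, shArf1-1 replicate 1 or shArf1-2 replicate 1, adjusted p = 0.0535 to 0.171). Erlec1, a lectin that reads trimmed glycans, rose from 10.3 to 11.7 FPKM to 13.7 to 16.8 (0.39 ± 0.08). Derl3, of the derlin channel family, had the highest fitted change of any member (2.30 ± 0.54, adjusted p = 0.00108) on very few reads, with 2, 4 and 1 counts in shlucif, 5, 14 and 18 with shArf1-1, and 14, 12 and 12 with shArf1-2. The more abundant derlins did not pass. Derl1, at a mean of 46.9 FPKM in shlucif, changed by -0.04 ± 0.06 (adjusted p = 0.518), and Derl2, at 3.38 FPKM, by 0.19 ± 0.10 (adjusted p = 0.0923).

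Downstream of the membrane, 10 of 19 genes of the Vcp complex and of delivery to the proteasome were higher (52.6%) and 2 lower (10.5%). Ubxn8 (chr8:33619586-33641967, minus strand), which tethers Vcp to the ER membrane, was at 1.26, 1.76 and 2.18 FPKM in shlucif, 6.63, 5.5 and 6.37 with shArf1-1, and 3.91, 3.81 and 3.98 with shArf1-2 (1.47 ± 0.23, adjusted p = 6.15e-05). The 3 groups stood apart, with shArf1-2 between the others. Ufd1, the cofactor that binds ubiquitin chains for Vcp, rose from 7.63 to 8.79 FPKM to 11.1 to 13.2 (0.51 ± 0.08). Vcp itself changed little (0.14 ± 0.05, adjusted p = 0.0229, from 62.4 to 65.4 FPKM to 70.4 to 76.6), a call lost without shlucif replicate 2 (0.11, adjusted p = 0.115) or 3 (0.14, adjusted p = 0.0648). Of its 50-base stretches, 40.5% also occur in Vcp-rs. The lower members were Ubxn1, an adaptor of Vcp, from 38.3 to 40 FPKM to 26.5 to 28.9 (-0.59 ± 0.05), and Ube4b, a ligase that extends ubiquitin chains, from 31.2 to 31.8 to 22.7 to 26.2 (-0.39 ± 0.05). Ubqln2, the most abundant gene of this role, did not pass (0.10 ± 0.05, adjusted p = 0.092), though it did under scaling to library totals (0.16, adjusted p = 0.0074).

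Of 10 cytosolic ubiquitin ligase and conjugating enzyme genes, 7 were higher (70%) and 2 lower (20%). Cul1, the scaffold of the SCF ligases, rose from 11.4, 10.6 and 9.93 FPKM in shlucif to 22.1, 21.3 and 23 with shArf1-1 and 20.5, 19.7 and 20.6 with shArf1-2 (0.93 ± 0.07, adjusted p = 1.88e-09). Skp1, the adaptor of the same ligases, rose from 82.2 to 87.9 FPKM to 97.8 to 116 (0.30 ± 0.05), and the conjugating enzyme Ube2d1 from 5.01 to 6.6 to 9.06 to 11 (0.70 ± 0.09). The lower members were the F-box proteins that bind high-mannose glycans in such ligases. Fbxo2 fell from 75.7, 63.6 and 70.6 FPKM to 39.3, 42.6 and 36.5 with shArf1-1 and 48.8, 51.1 and 49.9 with shArf1-2 (-0.71 ± 0.09, adjusted p = 4.62e-06), and Fbxo6 from 11.3 to 12.5 to 7.61 to 10.8 (-0.49 ± 0.11).

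The cytosolic heat shock proteins and co-chaperones had 6 higher and 4 lower members of 14 (42.9% and 28.6%). Hspa8 (chr9:40800984-40810087, plus strand), the constitutive Hsp70, read 643, 621 and 647 FPKM in shlucif, 314, 323 and 310 with shArf1-1, and 342, 334 and 355 with shArf1-2. It fell by 1.01 ± 0.05 on the log2 scale (adjusted p = 8.81e-13), and 38.6% of its 50-base stretches also occur in other annotated genes, so reads may have been split. Hsp90ab1, the most abundant member, fell from 2514 to 2581 FPKM to 2012 to 2290 (-0.32 ± 0.05, adjusted p = 1.1e-05). Its paralog Hsp90aa1 was higher (0.17 ± 0.05, adjusted p = 0.00554), from 271 to 291 FPKM to 300 to 350, with 47.5% of its stretches shared with other genes. After scaling by TMM the groups of Hsp90aa1 overlapped. Among their partners, Hsph1, an exchange factor for Hsp70, rose from 25.4 to 27 FPKM to 39.7 to 42.5 (0.59 ± 0.05, adjusted p = 4.5e-09), Dnaja1 from 29.9 to 30.4 to 41.2 to 49.9 (0.53 ± 0.06) and Dnajc5, the cysteine string protein of vesicles, from 16.1 to 17.8 to 26 to 28.5 (0.61 ± 0.05).

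Of 16 stress signalling genes, 5 were higher (31.2%) and 6 lower (37.5%), shares close to those of all genes. Among the sensors, Ern1 fell from 8.29, 9.41 and 9.59 FPKM in shlucif to 6.01, 6.03 and 5.92 with shArf1-1 and 6.54, 7.61 and 7.08 with shArf1-2 (-0.54 ± 0.08, adjusted p = 6.95e-06). Eif2ak3 was at 6.81 to 8.21 FPKM in shlucif, 7.05 to 7.37 with shArf1-1 and 5.66 to 5.97 with shArf1-2. It was called lower over both hairpins (-0.24 ± 0.10, adjusted p = 0.0358) but did not pass with shArf1-1 alone (-0.08), with scaling to library totals (-0.18, adjusted p = 0.111) or without any 1 of 5 libraries (all but shlucif replicate 1 and the shArf1-1 libraries, adjusted p = 0.0622 to 0.21). Eif2ak1, the haem-regulated kinase of the same substrate, rose from 5.46 to 6.04 FPKM to 9.54 to 11 (0.78 ± 0.07, adjusted p = 2.15e-08). Eif2s1, which encodes that substrate, was at 32.1 to 33 FPKM in shlucif and 31.7 to 40.7 in Arf1-deficient cells and did not pass (0.03 ± 0.07, adjusted p = 0.75). Ppp1r15a (GADD34), the phosphatase subunit that reverses its phosphorylation, rose from 32.8 to 36.3 FPKM to 38.9 to 51.7 (0.37 ± 0.08), and Atf6b, the most abundant gene of this role, did not pass (0.03 ± 0.07, adjusted p = 0.72).

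The kinase branch toward JNK also split. Map3k5 (ASK1) fell from 11, 11.4 and 11 FPKM in shlucif to 5.21, 5.28 and 5.7 with shArf1-1 and 5.76, 6.27 and 5.51 with shArf1-2 (-1.05 ± 0.07, adjusted p = 1.3e-10). Of the JNK genes, Mapk9 fell from 19.9, 22.4 and 21.7 FPKM to 12.1, 11.9 and 13.1 and to 14.7, 15.6 and 16.4 (-0.68 ± 0.09, adjusted p = 3.04e-06). Mapk10, the neuronal form, rose from 1.89 to 2.03 FPKM to 3.49 to 4.04 (0.90 ± 0.08), and Mapk8 from 6.96 to 7.35 to 9.56 to 10.9 (0.43 ± 0.06). Map2k7, the kinase above JNK, was higher (0.31 ± 0.11, adjusted p = 0.0223) with overlapping groups, and not without shlucif replicate 1 (0.27, adjusted p = 0.103) or 2 (0.27, adjusted p = 0.0963). Of its exon bases, 35.2% lie in other annotated genes. Nfe2l2 (NRF2), the factor of the oxidative stress response, fell from 13.5 to 14.1 FPKM to 7.71 to 8.81 (-0.79 ± 0.07, adjusted p = 1.32e-08), and Wfs1, an ER membrane protein that limits stress signalling, from 5.87 to 7.22 to 3.34 to 5.65 (-0.70 ± 0.12).

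The apoptosis genes and calpains held 0 higher and 3 lower members of 5 (60%), the lower ones being Capn2, Capn1 and Bak1. Capn2, a calcium-activated protease, fell from 12.7, 13.3 and 12.9 FPKM to 7.25, 8.03 and 8.69 with shArf1-1 and 9.05, 8.52 and 9.12 with shArf1-2 (-0.68 ± 0.07, adjusted p = 7.56e-08), and Capn1 from 6.29 to 7.31 to 4.35 to 5.9 (-0.47 ± 0.11). Bak1, a pore-forming effector, was lower (-0.49 ± 0.14, adjusted p = 0.00443), although 1 shArf1-1 library at 6.27 FPKM lay within the shlucif range of 6.24 to 7.04. Bax, the other effector, was at 15.4 to 17.2 FPKM in shlucif and 16.4 to 22.5 in Arf1-deficient cells and did not pass (0.12 ± 0.10, adjusted p = 0.318). Of the exon bases of Capn2 and Bak1, 27.1% and 25.5% lie in other annotated genes.

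The 8 members with an ER stress element before the start changed in both directions. Derl3, Dnajc3, Syvn1, Canx and Calr were higher and Pdia6, Ero1b and Calr4 lower, with a median log2 fold change of 0.23. Over all members 44.8% were higher and 26.1% lower, with a median of 0.14. Over all tested genes the shares were 31.6% and 32.9%, with a median of 0.00. With so few genes per motif, these counts do not show whether genes with a motif differ from the other members. Calr4, a little-expressed relative of Calr, fell from 1.04 to 1.66 FPKM to 0.355 to 0.766 (-1.24 ± 0.28, adjusted p = 0.000784). Of the 4 members with the unfolded protein response element core, Mapk8, Ube2j1 and Vcp were higher and Txndc5, a disulphide isomerase, was lower (-0.25 ± 0.10, adjusted p = 0.0347). The call of Txndc5 was lost with scaling to library totals (-0.19, adjusted p = 0.0919) and without any shlucif library or shArf1-2 replicate 1 or 3 (adjusted p = 0.0559 to 0.105).

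**Figure D4:**
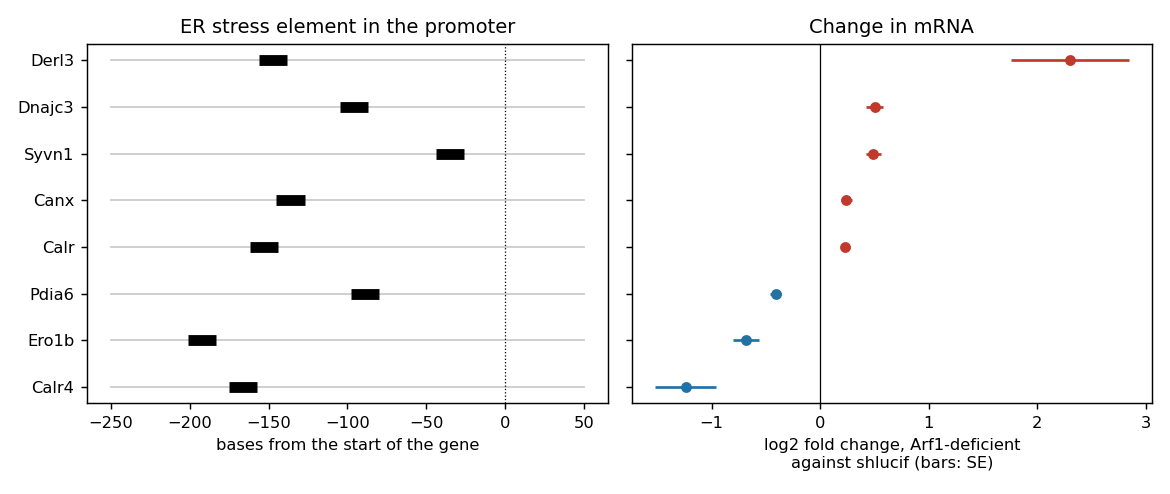
Left, position of the ER stress element (black, in bases from the start) in the promoters of the 8 members that hold it (grey lines, 250 bases before to 50 after the start); right, the log2 fold change of each gene in Arf1-deficient against shlucif cells (bars SE). The elements of the 5 higher members (red) begin between -44 (Syvn1) and -162 (Calr), and those of the 3 lower (blue) between -98 (Pdia6) and -201 (Ero1b).

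Genes of the same processes outside the set also changed in both directions. Of the pathway genes left out by the rule, 8 of 20 tested were higher (40%, against 31.6% of all genes) and 3 lower (15%, against 32.9%), with a median of 0.03. Of 41 ER folding and membrane insertion genes outside the pathway, 19 were higher (46.3%) and 10 lower (24.4%), with a median of 0.19. The KDEL receptors, which return ER proteins from the Golgi in COPI vesicles, differed among themselves. Kdelr2 rose from 57.8 to 89.2 mean FPKM (0.56 ± 0.09), Kdelr1 fell slightly (-0.20 ± 0.06) and Kdelr3 fell from 13.1 to 5.48 (-1.33 ± 0.21, adjusted p = 6.17e-05).

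Between the hairpins, 32 members differed (23.9%, against 14.4% of all genes), 9 higher with shArf1-2 (6.98% of all genes) and 23 lower (7.46%). The median difference, shArf1-2 minus shArf1-1, was -0.07 over the members and 0.00 over all genes. Of the 60 members that were higher in Arf1-deficient cells, 48 had the smaller value with shArf1-2 (80%, against 65.6% of all higher genes). The median difference over these 60 was -0.09, against -0.06 over all higher genes. Of the 35 lower members, 15 had the smaller value with shArf1-2 (42.9%, against 34% of all lower genes). Their median difference was 0.02, against 0.06 over all lower genes. Arf1 itself was lower with shArf1-1 than with shArf1-2. The largest differences past the threshold were in Ubxn8 (-0.68 ± 0.14, adjusted p = 0.000593), Ero1a (0.47 ± 0.06, adjusted p = 2.34e-06) and Ckap4, an ER membrane protein of sheets, which was at 26.7 to 28.3 FPKM in shlucif, 35 to 36.2 with shArf1-1 and 26.3 to 28.2 with shArf1-2 (-0.40 ± 0.06, adjusted p = 2.01e-05). The count of members that differed rested in part on single libraries. It was 4 higher and 9 lower without shArf1-1 replicate 1, 5 and 12 without shArf1-2 replicate 1, and 5 and 11 without shArf1-2 replicate 2.

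**Figure D5:**
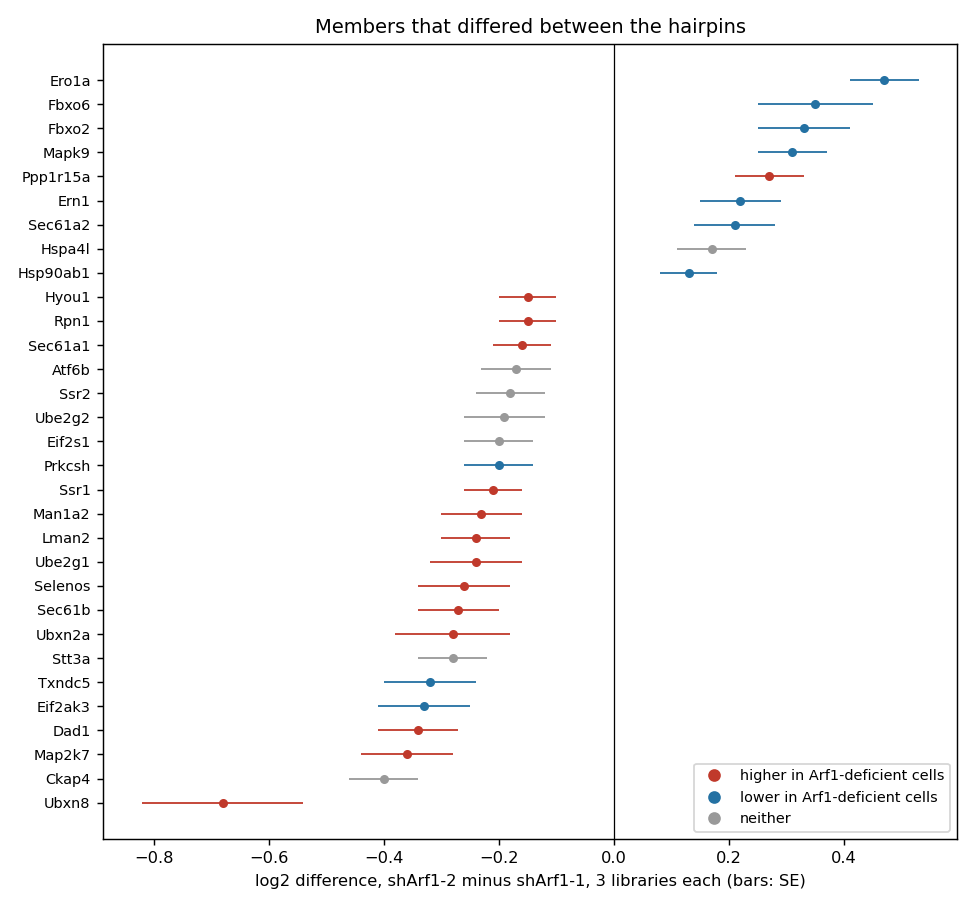
Log2 difference between the hairpins (x axis, shArf1-2 minus shArf1-1, 3 libraries each, bars SE) for 31 of the 32 members past the threshold, coloured by their call against shlucif. The negative values range to -0.68 in Ubxn8 and the 9 positive values to 0.47 in Ero1a.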

How the data were processed

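The authors deposited 1 table with, for each gene and library, a raw read count and an FPKM value; recomputing FPKM from count, listed length and library total gave the deposited values to within a relative 1.89e-07. The submitters' processing notes name mm10; aligner, counter and use of strand are not given in the sources used here. Table coordinates did not match GRCm38, so positions are those of GENCODE M21 by identifier.

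Counts entered edgeR 4.0.16 (R 4.3.3) through filterByExpr, TMM, robust glmQLFit and glmQLFTest, Benjamini-Hochberg adjustment over 12448 genes, threshold 0.05. A fit of 2 groups compared 6 Arf1-deficient with 3 shlucif libraries, and a fit of 3 groups gave each hairpin and their difference. On simulated data with 199 changed genes, 167 were recovered in the first comparison with 9 false calls. Of the 100 changed by 1.5-fold, 74 were recovered, and 2 of the 199 had the wrong sign. Far fewer genes changed there than were called in these data, so these figures do not measure error here. Columns with a 2 in place of the 1 in Arf1 were read as shArf1-2. Members, roles and marker lists were chosen with earlier results of these data known. Members named were, per role, up to 2 with the largest rise and 2 with the largest fall (at least 5 CPM, no overlap), the most abundant, the 6 with the largest hairpin difference, and any with at least 20 counts in each shlucif library but at most 3 in each Arf1-deficient library. All other members named in the text, and the KDEL receptors, were chosen after their values were seen. Some members that meet the rule are not reported here by name; the counts include them. Replicate numbers did not pair the libraries (correlations of deviations -0.0822 to 0.0941 over 9 pairs). Alternatives were DESeq2 1.42.0, other scalings and filters, a replicate block, a 1.2-fold minimum, limma 3.58.1 on log2(FPKM + 0.1) or log2(FPKM + 1), and leaving out each library. Total counts set the precision; a fold against 0 counts is a bound from a floor of 3 counts and covers counting error only.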

Additional observations from a re-analysis of the deposited data

Results flagged for a closer look

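The change with shArf1-2 differed from that with shArf1-1, by edgeR's test of the difference itself, for 32 members, 31 of which are given here as shArf1-2 minus shArf1-1 on the log2 scale. Lower with shArf1-2 among channel, glycosylation and glycan-handling genes were Sec61a1 (-0.16), Sec61b (-0.27), Ssr1 (-0.21), Ssr2 (-0.18), Dad1 (-0.34), Rpn1 (-0.15), Stt3a (-0.28), Lman2 (-0.24), Man1a2 (-0.23) and Prkcsh (-0.20). Lower among folding and degradation genes were Hyou1 (-0.15), Txndc5 (-0.32), Selenos (-0.26), Ube2g1 (-0.24), Ube2g2 (-0.19), Ubxn2a (-0.28) and Ubxn8 (-0.68). Lower among signalling and other genes were Atf6b (-0.17), Eif2ak3 (-0.33), Eif2s1 (-0.20), Map2k7 (-0.36) and Ckap4 (-0.40). Higher with shArf1-2 were Ero1a (0.47), Fbxo6 (0.35), Fbxo2 (0.33), Mapk9 (0.31), Ppp1r15a (0.27), Ern1 (0.22), Sec61a2 (0.21), Hspa4l (0.17) and Hsp90ab1 (0.13). Of the 9 members higher with shArf1-2, 7 (77.8%) were among those lower in Arf1-deficient cells, against 514 of 869 (59.1%) over all tested genes.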

How the results depend on the processing

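Values are given in the order Arf1-deficient, shArf1-1, shArf1-2 against shlucif. More members were higher than lower in each of these comparisons under every alternative run except a 1.2-fold minimum with shArf1-2. The median log2 fold change was 0.20, 0.22 and 0.19 with library size scaling, 0.19, 0.20 and 0.16 with limma on log2(FPKM + 1) and 0.19, 0.21 and 0.17 on log2(FPKM + 0.1), where the hairpin difference had medians of -0.03 and -0.04 and, with the first, 15 members lower. Of the member calls in the hairpin difference 28.1% were upward, against 40.7% with library size and 39.3% with upper quartile scaling. A minimum change of 1.2-fold left 30, 37 and 25 members higher and 25, 24 and 25 lower, 5177 and 4926 genes over both hairpins and with shArf1-2, and, between hairpins, 1 member higher, 1 lower and 189 genes. Leaving out each library in turn gave 53 to 66, 65 to 70 and 48 to 58 members higher, 28 to 35, 28 to 33 and 33 to 36 lower, medians of 0.12 to 0.16, 0.16 to 0.18 and 0.08 to 0.12, and 7256 to 8119, 7894 to 8511 and 7315 to 8200 genes. For the hairpin difference it gave 4 to 8 members higher, 9 to 23 lower, medians of -0.08 to -0.02 and 1159 to 1977 genes. The replicate block gave 59 members higher and 31 lower over both hairpins, and 9 and 21 between them. Leaving out libraries moved Atf6b between -0.01 (without shlucif replicate 2; -0.00 without shArf1-1 replicate 2) and 0.06, and Eif2s1 between -0.02 (without shArf1-1 replicate 3) and 0.05, none past the threshold. Man1b1 (0.01) lay at -0.00 with DESeq2, its size factors in edgeR, upper quartile scaling or at least 10 counts in every library, and between -0.02 and 0.02 with a library left out. With DESeq2, 94 of the 95 called members were called again, and with library size scaling 87. The replicate block also ended the calls of Edem3 (adjusted p = 0.0517), Eif2ak3 (0.0607) and Txndc5 (0.0594), and limma on FPKM those of Eif2ak3 and Txndc5. Only the 250 bases before the start gave 0 members with the second form of the ER stress element and 2 with the heat shock element. Where these calls were lost the cause was not tested. Changes of under 20 counts, as in Derl3, are limited by depth.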
